A study of Rattus norvegicus with 12 samples.

Results

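Matrix metalloproteinases (MMPs) are zinc-dependent enzymes that cut collagens, elastin and other proteins outside the cell, and tissue inhibitors of metalloproteinases (TIMPs) bind and block them. The genes described here are 7 MMPs (Mmp2, Mmp3, Mmp7, Mmp9, Mmp12, Mmp14 and Mmp28) and 3 TIMPs (Timp1, Timp2 and Timp3), named as proteases and inhibitors of lung matrix remodelling. The choice was made with earlier results of these data known. They were found through the RefSeq accession of each array probe, which gave 11 probes of 30367 and 10 genes of the 14737 with a symbol on the array. Mmp2 had 2 probes and each other gene had 1.

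Lung RNA was measured on 12 single-colour Agilent arrays, with 3 replicates in each of 4 groups of male Sprague-Dawley rats aged 8 to 12 weeks. The control rats breathed air and were given saline. The CS + LPS group was exposed to cigarette smoke (CS) until day 30 and received lipopolysaccharide (LPS), a bacterial cell wall product, into the trachea on days 5 and 19 as a model of chronic obstructive pulmonary disease (COPD), and the CS + LPS + NaHS and CS + LPS + PPG groups had the same exposure and a drug before it. NaHS, given at 14 μmol/kg, releases hydrogen sulfide (H2S), and propargylglycine (PPG) inhibits cystathionine-γ-lyase (CTH), an enzyme that makes H2S. Lungs were removed 24 h later than the final smoke exposure. The RNA came from tissue of the left upper lobe, so fewer cells of a type and less RNA per cell cannot be told apart, and no group received NaHS or PPG without smoke and LPS. The tissue label was checked with lung genes: the log2 of the summed signal of alveolar type 2 markers lay between 19.79 and 20.34 on all 12 arrays, and that of alveolar type 1 markers between 17.94 and 18.43.

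The arrays came from 2 slides, and the slides were not balanced. All 3 CS + LPS arrays and control replicate 3 lay on slide 2, while control replicates 1 and 2 and all NaHS and PPG arrays lay on slide 1. Slide and treatment therefore cannot be told apart between CS + LPS and the treated groups except through control replicate 3. That array also stood apart, with a 75th percentile of the signal of 857 (1430 to 2227 on the others) and a median correlation with the other arrays of 0.950 (at least 0.982 for the others). The log2 of the summed signal of heart muscle markers was 16.40 there, against 12.78 and 12.61 in control replicates 1 and 2. In the same order, fat markers read 13.29 against 11.78 and 11.79, and ciliated markers 14.61 against 12.87 and 12.64. Airway secretory markers read 19.29 against 18.27 and 18.19, while macrophage markers were lower, at 15.79 against 16.35 and 16.39. The part of tissue content in its values was not tested. Where a call of an MMP or TIMP gene was lost without control replicate 3, the difference without it is given. Without that array no fit that allows for the slide can compare CS + LPS with another group.

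In the lung, MMPs are made by several kinds of cells. Macrophages make MMP12, neutrophils store MMP9, fibroblasts make MMP2, and MMP14 sits on the cell surface and activates the MMP2 precursor. MMP12 breaks down elastin, the fibre that gives alveoli their recoil, and mice without it are known to be protected from emphysema caused by smoke. Most MMPs are secreted as inactive precursors, so their RNA level is not their activity.

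The sequence before the start site is shown for the genes whose level differed most between groups, and for Timp1, because their promoters differed in the short motifs they held. Each run holds the 250 bases before the start of the gene, 5′ to 3′ on the gene's strand, from RefSeq (GRCr8), with motif matches in capitals. Of the 10 genes, 7 had an entry (Mmp2, Mmp9 and Mmp14 did not). Searched on both strands were the AP-1 site TGANTCA, the TATA box TATAAA, the Ets (PEA3) site AGGAAG and the GC box GGGCGG, which occurred in 6.34%, 12.9%, 29.5% and 30.5% of 33469 promoters of the same length. No motif of these is contained in another. The sequences lie at chr8:12866402-12866651 (plus strand) for Mmp12, chr10:68762378-68762627 (minus strand) for Mmp28, chrX:3771123-3771372 (minus strand) for Timp1 and chr7:19459559-19459808 (minus strand) for Timp3.
Mmp12: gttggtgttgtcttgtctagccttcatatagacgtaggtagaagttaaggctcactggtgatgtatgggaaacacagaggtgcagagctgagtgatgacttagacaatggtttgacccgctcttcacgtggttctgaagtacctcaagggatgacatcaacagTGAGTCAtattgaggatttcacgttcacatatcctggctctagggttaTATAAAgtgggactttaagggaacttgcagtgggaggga
Mmp28: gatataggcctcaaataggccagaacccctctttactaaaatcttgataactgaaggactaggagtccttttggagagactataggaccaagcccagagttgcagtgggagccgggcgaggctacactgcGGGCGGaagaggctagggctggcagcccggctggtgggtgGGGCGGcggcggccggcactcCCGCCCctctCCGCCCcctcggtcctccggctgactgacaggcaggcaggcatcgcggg
Timp1: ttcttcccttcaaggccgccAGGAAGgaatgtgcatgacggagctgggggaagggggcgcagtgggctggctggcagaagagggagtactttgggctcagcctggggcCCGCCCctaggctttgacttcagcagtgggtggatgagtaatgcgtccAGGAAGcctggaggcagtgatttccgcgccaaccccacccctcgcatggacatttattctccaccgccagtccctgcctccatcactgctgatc
Timp3: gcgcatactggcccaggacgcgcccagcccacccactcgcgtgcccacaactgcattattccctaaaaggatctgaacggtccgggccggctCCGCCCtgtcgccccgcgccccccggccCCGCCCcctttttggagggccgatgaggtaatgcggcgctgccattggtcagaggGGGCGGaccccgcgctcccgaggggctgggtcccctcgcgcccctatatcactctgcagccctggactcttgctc
The Mmp12 promoter held an AP-1 site 87 bases before the start and a TATA box at 39. The same pair stood before Mmp3 (AP-1 at 71, TATA box at 32) and Mmp7 (AP-1 at 80, TATA box at 43 and 140), its neighbours on chromosome 8, and both of these also held an Ets site. None of the 4 other promoters held an AP-1 site or a TATA box of these letters. Mmp28 held 4 GC boxes, Timp3 held 3, Timp2 held 1, and Timp1 held 1 GC box and 2 Ets sites. The GC content was 38.8% for Mmp3 and Mmp7 and 45.6% for Mmp12, against 61.2% to 72.0% for Mmp28 and the inhibitors. A match is a description of the sequence and not a site of binding.

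All levels below are log2 of the background-subtracted signal, scaled to the 75th percentile of each array. They compare groups for 1 probe and cannot rank genes, because probes differ in brightness. A probe was called differentially expressed (DE) where 2 groups differed by 2-fold or more with an unadjusted p under 0.05 by limma, and the Benjamini-Hochberg adjusted p over all 21239 probes tested is given beside it. Detection in a group required a signal flagged as well above background by the Feature Extraction software on each of its 3 arrays. By that rule 6 of the 10 genes were detected in control, 8 in CS + LPS, 8 with NaHS and 7 with PPG, and 8 genes were tested.

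Compared with the control group, Mmp12, Mmp9 and Mmp28 were called DE and higher in the CS + LPS group, and Timp3 was called DE and lower. Those are 4 of the 8 genes tested, while 4.59% of all probes were called DE in this comparison. The genes were chosen with earlier results of these data known, so this count and those below are no test against the shares of all probes. Mmp9 and Mmp28 were not detected in control and passed the filter on low signals through exposed groups alone, so the filter sets part of this count, and of the 6 genes detected in control 2 (Mmp12 and Timp3) were called. Mmp12 was the only one with an adjusted p under 0.05, which 2.04% of all probes had. The median log2 difference was 0.55 over the 8 genes and -0.04 over all probes. With NaHS, only Mmp9 of the 8 was called DE against control (2.67% of all probes were; none of the 8 and 0.0989% of all probes had an adjusted p under 0.05; 3 of the 8 and 17.1% of all probes had an unadjusted p under 0.05), and the median was 0.38. With PPG, Mmp9 and Mmp12 were called DE against control (4.38% of all probes were), Mmp12 also had an adjusted p under 0.05 (4.61% of all probes had), and the median was 0.11. These 3 comparisons share the control arrays. The adjusted p-values rest on a fit of all groups together. With only the 2 groups compared, the probes with an adjusted p under 0.05 fell from 433 to 3 in CS + LPS against control. With NaHS they fell from 21 to 0 and with PPG from 979 to 0, and the methods' t-test gave 1, 0 and 0. No adjusted p under 0.05 given here or below for NaHS or PPG against control was therefore kept there.

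Compared with the CS + LPS group, Timp3 was called DE and higher and Mmp28 DE and lower with NaHS, which is 2 of 8, against 1.71% of all probes. With PPG, Mmp28 alone was called DE and lower, against 2.06% of all probes. None of the 8 genes had an adjusted p under 0.05 in either comparison (0.598% and 0.518% of all probes had). An unadjusted p under 0.05 was found for 2 of the 8 with NaHS, against 9.66% of all probes, and for 2 of the 8 with PPG, against 10.5% of all probes. Between PPG and NaHS none of the 8 was called DE by limma, 2 (Mmp14 and Timp3) had an unadjusted p under 0.05 (8.7% of all probes had), and 0.518% of all probes were called DE. In that comparison 0% of all probes had an adjusted p under 0.05 by limma, 1847 had an unadjusted p under 0.05, and the methods' t-test also gave 0 after adjustment. With 3 arrays against 3, an exact permutation test of a single gene cannot go below a two-sided p of 0.1, so the p-values below come from limma, fitted across all probes.

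**Figure D1:**
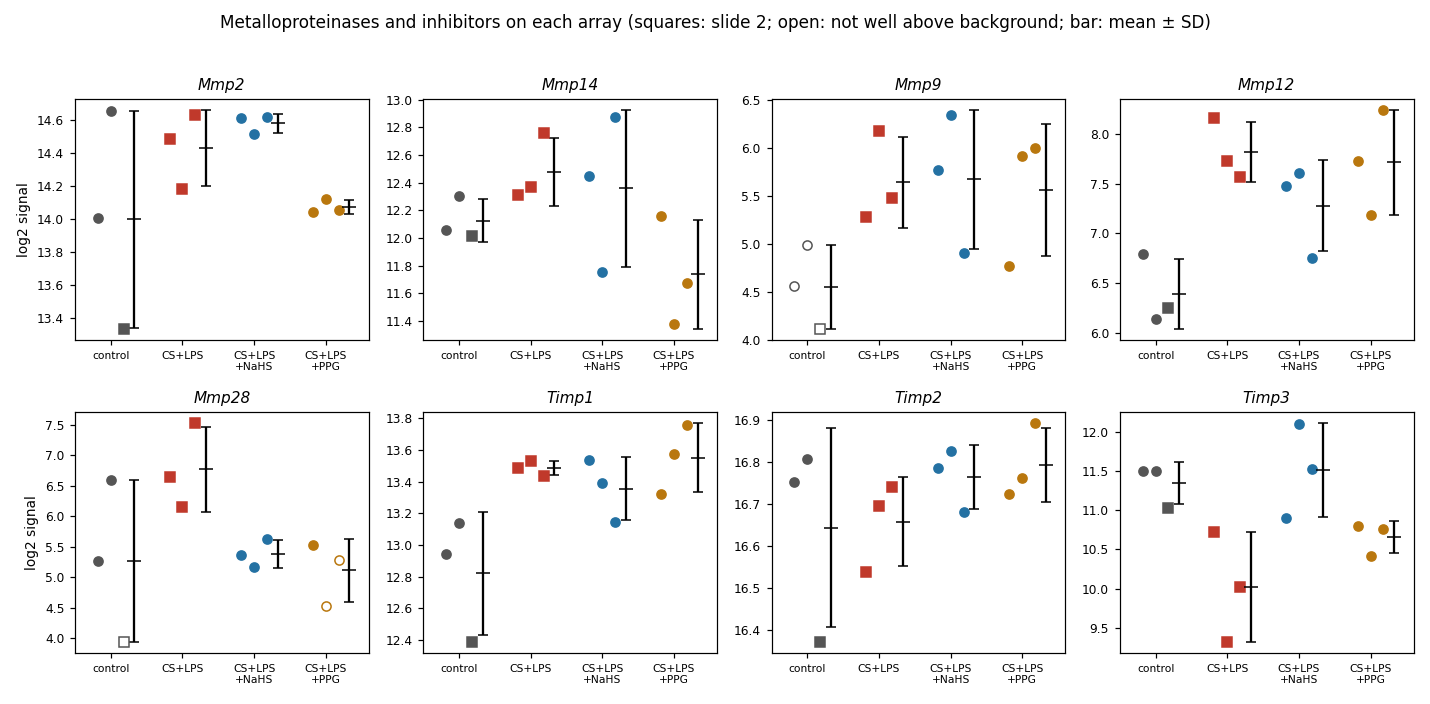
Log2 signal of the 8 tested genes on each of the 12 arrays, by group, with the mean ± SD (n = 3); squares are arrays of slide 2 and open symbols are arrays where the probe was not well above background. Mmp12 lay between 6.14 and 6.79 in control and between 7.57 and 8.16 in the CS + LPS group, and Timp3 between 11.03 and 11.50 in control and between 9.32 and 10.72 in the CS + LPS group.

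Mmp12, the macrophage elastase, was higher after smoke and LPS. Its log2 signal was 6.79, 6.14 and 6.25 in control replicates 1 to 3 and 8.16, 7.73 and 7.57 in the CS + LPS group. It was 7.48, 7.60 and 6.76 with NaHS and 7.73, 7.18 and 8.23 with PPG. No CS + LPS or PPG array overlapped control, while NaHS replicate 3 lay just below control replicate 1.

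The mean of Mmp12 was 6.39 ± 0.35 (SD, n = 3) in control and 7.82 ± 0.30 in the CS + LPS group, 2.69-fold higher (log2 difference 1.43, SE 0.31, 95% interval 0.75 to 2.11, adjusted p = 0.0452, limma). With PPG it was 7.71 ± 0.53, 2.50-fold above control (1.32, interval 0.64 to 2.01, adjusted p = 0.0434, limma). With NaHS it was 7.28 ± 0.46, which was 1.85-fold above control and below the 2-fold threshold (0.89, interval 0.21 to 1.57, unadjusted p = 0.0155, adjusted p = 0.212, limma). The NaHS and CS + LPS groups were not distinguished directly: the log2 difference was -0.54, with an interval of -1.22 to 0.14 (adjusted p = 0.673, limma). PPG against CS + LPS gave -0.10 (interval -0.79 to 0.58).

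The Mmp12 calls of the CS + LPS and PPG groups held without any single array, with log2 differences of 1.26 to 1.63 and 1.06 to 1.59. Their adjusted p ranged from 0.0486 to 0.119 and from 0.0503 to 0.141 in those fits. That of PPG was not under 0.05 with only the 2 groups compared or by the methods' t-test, where 0 probes were. With the slide as a block the differences were 1.57 (adjusted p = 0.0188, limma) and 1.25 (adjusted p = 0.0766, limma). The first of these rests on control replicate 3 as the only control array of slide 2. Another background correction (normexp) gave 0.73 and 0.72, below 2-fold. In CS + LPS against control the slide block gave 8815 of the 21239 probes an adjusted p under 0.05. In PPG against control it gave 635. Without control replicate 1 or NaHS replicate 3 the NaHS group was called DE too, at 1.09 and 1.15.

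Like Mmp12, the summed signal of macrophage markers was higher in the exposed groups than in control. Among the exposed arrays the order differed. NaHS replicate 3 had the lowest Mmp12 signal (6.76) with a log2 sum of 17.05, and PPG replicate 3 had the highest (8.23) with a log2 sum of 16.999. Of 10 markers 9 were on the array and 8 were detected. The log2 of their summed signal was between 15.79 and 16.39 on control arrays, 16.77 and 17.15 on CS + LPS arrays, 16.83 and 17.05 on NaHS arrays, and 16.999 and 17.15 on PPG arrays, and none of the exposed arrays overlapped control. Against control, 3, 2 and 3 of the 8 were called DE and higher in the CS + LPS, NaHS and PPG groups, with median log2 differences of 0.87, 0.72 and 0.96, and Cd163 was called DE and lower in CS + LPS. Of all probes 4.59%, 2.67% and 4.38% were called DE in these comparisons. Cd68, a lysosomal protein of macrophages, had a mean of 12.31 in control and 13.71, 13.73 and 13.65 in the exposed groups. The part of macrophage number in the Mmp12 level was not tested. None of these markers was called DE between either treated group and CS + LPS.

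Mmp9, the neutrophil gelatinase, was close to background. It was well above background on no control array and on all 9 exposed arrays. The arrays read 4.55, 4.99 and 4.11 in control, 5.28, 6.18 and 5.48 in CS + LPS, 5.77, 6.34 and 4.90 with NaHS and 4.77, 5.91 and 6.004 with PPG. The CS + LPS arrays all lay above control, while NaHS replicate 3 and PPG replicate 1 lay within the control range.

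Because control gave only an upper bound for Mmp9, the fold between group means is a lower bound with regard to background alone. It is the bright group against the dimmest signal called well above background on each control array or the probe's own signal, whichever was higher. This bound on the means was 2.03-fold for CS + LPS, 2.07-fold for NaHS and 1.92-fold for PPG, each against control. It does not allow for the spread between arrays, so the true fold can be smaller. The fitted log2 difference behind the DE call of CS + LPS was 1.09 (interval 0.15 to 2.04, adjusted p = 0.154, limma). That of NaHS was 1.12 (interval 0.17 to 2.07, adjusted p = 0.243, limma), and that of PPG 1.01 (interval 0.06 to 1.96, adjusted p = 0.149, limma). The SE was 0.43 each, and all these intervals reach below a 2-fold difference. Between the exposed groups Mmp9 differed by 0.03 for NaHS against CS + LPS (interval -0.92 to 0.98) and by -0.08 for PPG against CS + LPS (interval -1.03 to 0.86).

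The Mmp9 calls rested on single arrays. The call of the CS + LPS group was lost without control replicate 1 (log2 difference 1.09, unadjusted p = 0.0545), control replicate 3 (0.87) or CS + LPS replicate 2 (0.83). That of the NaHS group was lost without control replicate 3 (0.90), NaHS replicate 1 (1.07) or NaHS replicate 2 (0.79), and that of the PPG group without control replicate 1 (1.01), control replicate 3 (0.79), PPG replicate 2 (0.83) or PPG replicate 3 (0.79). The 10 spots of the Mmp9 probe on each array had an SD of 0.092 to 0.667 in log2, against 0.033 to 0.094 for the brighter Timp1 probe.

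Neutrophil markers were higher beside Mmp9. Of 10 markers 9 were on the array and 7 were detected, and the granule proteases Elane and Ctsg were not among the detected. Summed in the same way, they lay between 12.96 and 14.23 on control arrays, 13.98 and 15.03 on CS + LPS arrays, 14.01 and 15.03 on NaHS arrays, and 14.63 and 15.13 on PPG arrays, so only the PPG arrays stayed clear of the control range. In the 3 groups 1, 2 and 3 of the 7 were called DE and higher than control (4.59%, 2.67% and 4.38% of all probes were called DE), with median differences of 0.83, 0.94 and 1.31. The part of neutrophil number in the Mmp9 level was not tested.

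**Figure D2:**
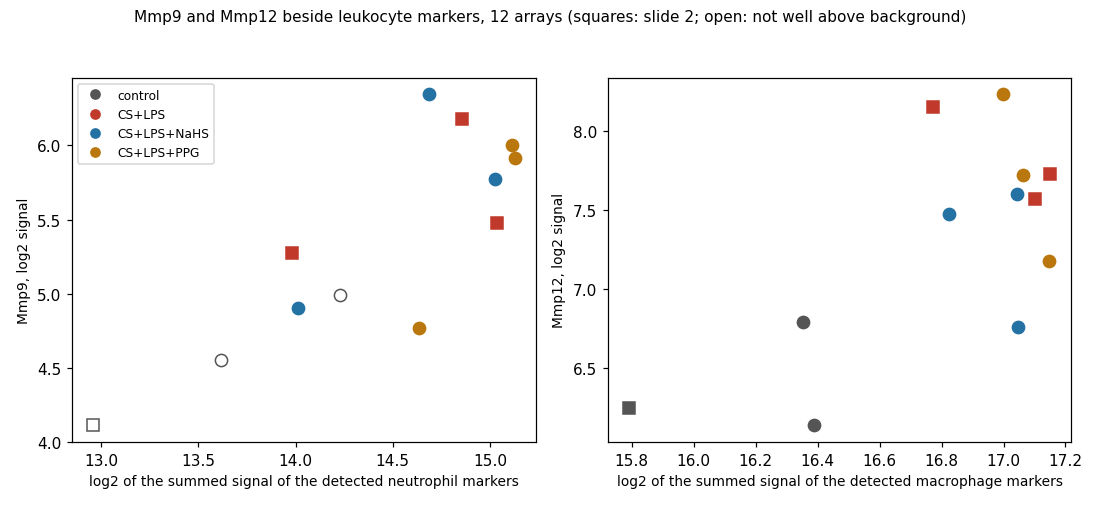
Log2 signal of Mmp9 against the log2 of the summed signal of neutrophil markers (left) and of Mmp12 against that of macrophage markers (right), with 1 point for each of the 12 arrays coloured by group. Macrophage sums were 15.79 to 16.39 on control arrays and at least 16.77 on exposed arrays, while neutrophil sums of control reached 14.23 and overlapped those of CS + LPS and NaHS.

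Mmp2, the fibroblast gelatinase, was bright and did not pass the DE rule in any comparison. The arrays read 14.01, 14.65 and 13.33 in control, 14.49, 14.18 and 14.63 in CS + LPS, 14.61, 14.52 and 14.62 with NaHS and 14.05, 14.12 and 14.06 with PPG. Control spanned all other values, with its replicate 3 the lowest of the 12 arrays and its replicate 2 the highest, while all PPG arrays lay below all CS + LPS and all NaHS arrays. The difference of CS + LPS from control was 0.43 (SE 0.26, adjusted p = 0.309, limma) and that of PPG from CS + LPS was -0.36 (interval -0.94 to 0.23, adjusted p = 0.675, limma). With the slide as a block they became 1.10 (adjusted p = 0.00581, limma) and -1.35 (adjusted p = 0.0146, limma), both of which rest on control replicate 3 as the only control array of slide 2. With that block 8815 and 4789 of the 21239 probes had an adjusted p under 0.05 in these comparisons, so such values are not particular to Mmp2. The other Mmp2 probe moved in the same direction in the comparisons with control.

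Mmp14, the membrane enzyme that activates the MMP2 precursor, was not called DE either. Over the replicates of each group it read 12.06, 12.30 and 12.02 in control, 12.31, 12.37 and 12.76 in CS + LPS, 12.45, 11.75 and 12.88 with NaHS and 12.16, 11.38 and 11.67 with PPG. All PPG arrays lay below all CS + LPS arrays. That difference was -0.74 (SE 0.28, unadjusted p = 0.0228, adjusted p = 0.379, limma), which is 1.68-fold and under the threshold. PPG against NaHS gave -0.62 (unadjusted p = 0.0488, adjusted p = 0.573, limma), and CS + LPS against control gave 0.36 (adjusted p = 0.425, limma).

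Mmp28, or epilysin, an MMP of epithelia and macrophages, was called DE between the CS + LPS group and each other group. Its signal read 5.26, 6.59 and 3.94 in control, 6.64, 6.15 and 7.53 in CS + LPS, 5.36, 5.16 and 5.62 with NaHS and 5.52, 4.53 and 5.29 with PPG. Control replicate 3 and PPG replicates 2 and 3 were not well above background. Every CS + LPS array lay above every NaHS and PPG array, but control replicate 2 lay within the CS + LPS range.

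The mean of Mmp28 over the 3 replicates was 5.26 ± 1.32 in control and 6.77 ± 0.70 in CS + LPS, 2.84-fold higher (log2 difference 1.51, SE 0.57, interval 0.25 to 2.77, adjusted p = 0.145, limma). It was 5.38 ± 0.23 with NaHS and 5.11 ± 0.52 with PPG, close to the mean of control (differences 0.12 and -0.15). Against CS + LPS the differences were -1.39 with NaHS (interval -2.65 to -0.13, unadjusted p = 0.0336, adjusted p = 0.438, limma) and -1.66 with PPG (interval -2.92 to -0.40, unadjusted p = 0.0146, adjusted p = 0.320, limma). The probe was well above background on 2 of 3 control arrays and 1 of 3 PPG arrays, so the means of these groups hold readings at background and their differences are not exact. The CS + LPS arrays were on the other slide than both treated groups, and slide and treatment cannot be told apart here except through control replicate 3.

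All 3 Mmp28 calls were lost without CS + LPS replicate 3, where the differences were 1.13, -1.01 and -1.28. The call against control was also lost without control replicate 3 (0.85), with the methods' t-test (unadjusted p = 0.156, a test of this gene alone), with only these 2 groups in the fit (unadjusted p = 0.0623, limma) and with normexp (0.31), that of NaHS without CS + LPS replicate 1 (-1.46), NaHS replicate 1 (-1.38) or NaHS replicate 2 (-1.28), and that of PPG without PPG replicate 2 (-1.36). With the slide as a block the differences were 2.83, -3.37 and -3.64 (adjusted p = 0.00497, 0.0142 and 0.0109, limma), and these rest on control replicate 3, where the probe was not well above background. In the same comparisons that block gave 8815, 4889 and 4789 of the 21239 probes an adjusted p under 0.05.

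Mmp3 (stromelysin 1) was well above background on 0 of 12 arrays, with log2 signals of 2.62 to 4.14, and no level is given. Mmp7 (matrilysin), an epithelial MMP, was well above background on 2 of 3 CS + LPS arrays, 2 of 3 NaHS arrays and none of the control or PPG arrays, so it was not tested. Its signal read 4.13, 3.34 and 3.65 in control, 5.37, 3.83 and 4.72 in CS + LPS, 6.76, 4.52 and 3.33 with NaHS and 4.23, 4.41 and 4.89 with PPG. NaHS replicate 1 was the highest of the 12 arrays, while NaHS replicate 3 was not well above background.

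Timp3, the inhibitor that binds to the matrix itself, was lower in the CS + LPS group and was close to the control mean with NaHS. Its log2 signal was 11.50, 11.50 and 11.03 in control and 10.72, 9.32 and 10.02 in CS + LPS. It was 10.90, 12.10 and 11.53 with NaHS and 10.79, 10.42 and 10.76 with PPG. All CS + LPS and all PPG arrays lay below all control arrays, and all NaHS arrays lay above all CS + LPS and all PPG arrays.

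The mean of Timp3 was 11.34 ± 0.27 in control and 10.02 ± 0.70 in CS + LPS, 2.51-fold lower (log2 difference -1.32, SE 0.36, interval -2.12 to -0.53, unadjusted p = 0.00362, adjusted p = 0.0780, limma). With NaHS it was 11.51 ± 0.60, 2.81-fold above CS + LPS (1.49, interval 0.70 to 2.28, unadjusted p = 0.00163, adjusted p = 0.114, limma) and 0.17 from control (interval -0.62 to 0.96). With PPG it was 10.66 ± 0.21, between CS + LPS (0.64 above, interval -0.15 to 1.43) and control (0.69 below, adjusted p = 0.224, limma). PPG against NaHS gave -0.85 (interval -1.64 to -0.06, unadjusted p = 0.0369, adjusted p = 0.566, limma).

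The Timp3 call of NaHS against CS + LPS held without any single array (1.14 to 1.84), and that of CS + LPS against control was lost only without CS + LPS replicate 2 (-0.97). With the slide as a block both kept their direction and lost the call, at 1.02 (unadjusted p = 0.143) and -1.01 (unadjusted p = 0.0731). Against the single control array of the same slide, CS + LPS gave -1.01 (unadjusted p = 0.106).

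Timp1, a secreted inhibitor that many cells make under inflammation, was higher in all exposed groups at less than 2-fold. The arrays read 12.94, 13.14 and 12.39 in control, 13.49, 13.53 and 13.44 in CS + LPS, 13.54, 13.39 and 13.14 with NaHS and 13.32, 13.58 and 13.76 with PPG. All 9 exposed arrays lay above the highest control array, NaHS replicate 3 only just. The differences from control were 0.66 (1.58-fold, adjusted p = 0.0942, limma), 0.54 (1.45-fold, adjusted p = 0.230, limma) and 0.73 (1.66-fold, adjusted p = 0.0586, limma), with an SE of 0.20 each. Neither treatment differed from CS + LPS beyond the spread (-0.13 with NaHS, interval -0.56 to 0.31; 0.07 with PPG, interval -0.37 to 0.50). With the slide as a block, CS + LPS was 1.10 above control (adjusted p = 0.00258, limma) and was then called DE, which rests on control replicate 3. So were 4824 of the 21239 probes, and 8815 had an adjusted p under 0.05.

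Timp2, an inhibitor that also takes part in the activation of the MMP2 precursor, varied least. Its replicates read 16.75, 16.81 and 16.37 in control, 16.54, 16.70 and 16.74 in CS + LPS, 16.79, 16.83 and 16.68 with NaHS and 16.72, 16.76 and 16.89 with PPG. The difference of CS + LPS from control was 0.01 (interval -0.29 to 0.32), and no difference between groups exceeded 0.15.

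**Figure D3:**
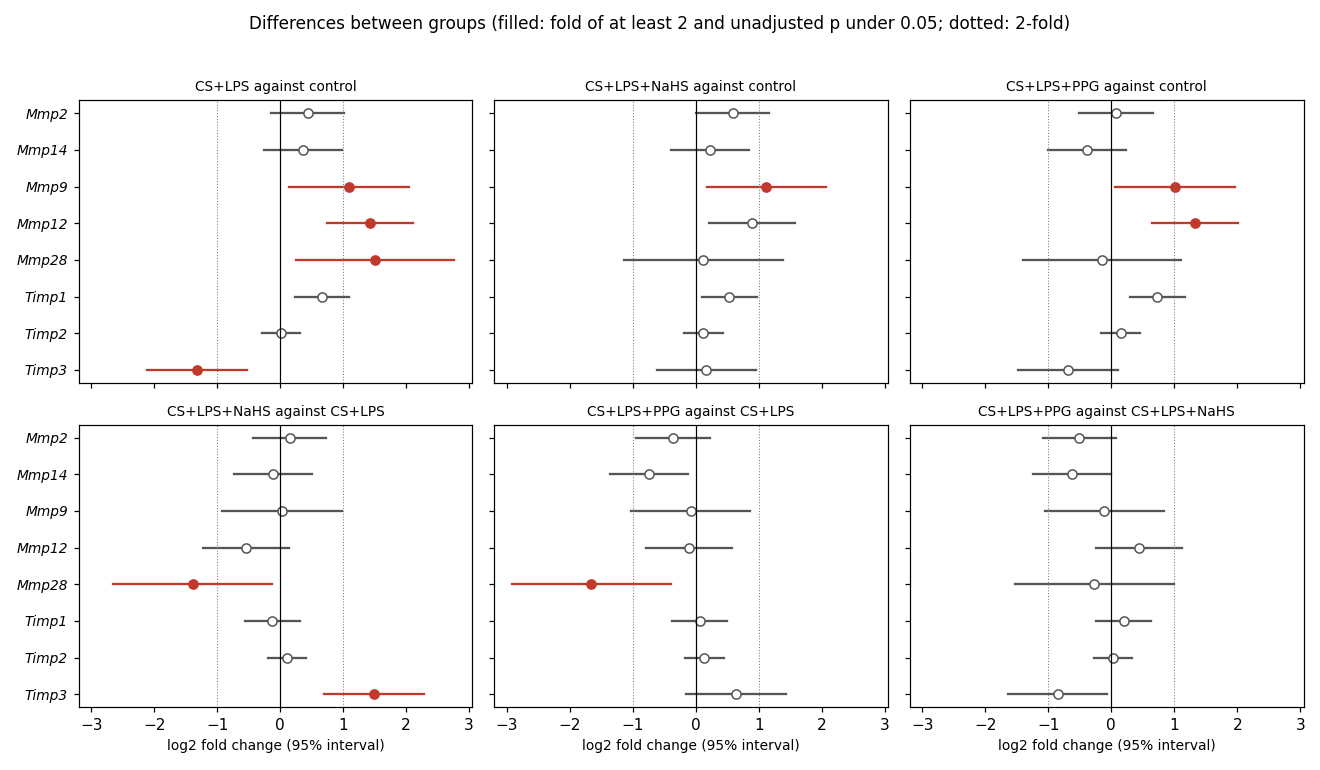
Log2 difference of each of the 8 tested genes in the 6 comparisons, with the 95% interval from limma; dotted lines mark a 2-fold change and filled red symbols the genes called DE. For Mmp12 the interval is 0.75 to 2.11 for CS + LPS against control, and for Timp3 the difference is -1.32 for CS + LPS against control and 1.49 for NaHS against CS + LPS.

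Other genes of the system were counted from lists chosen by role. Over the 6 comparisons 0.518% to 4.59% of all probes were called DE. Counts near these shares, here or in the marker lists, are not a result about a list. Of 16 other MMPs and TIMPs 15 were on the array and 9 were detected, and none was called DE in any of the 6 comparisons; their median against control was 0.30 for CS + LPS, 0.11 with NaHS and -0.16 with PPG. Of 22 activators, receptors and other inhibitors of MMPs 18 were detected, and Lcn2 alone was called DE, higher in each exposed group than in control. Lcn2 encodes neutrophil gelatinase-associated lipocalin, which binds MMP9. It read 12.33, 12.21 and 12.43 in control, 13.44, 13.90 and 13.89 in CS + LPS, 13.70, 13.87 and 13.84 with NaHS and 13.71, 14.06 and 14.52 with PPG, with no overlap with control. The differences from control were 1.41, 1.48 and 1.77 (SE 0.20; adjusted p = 0.0145, 0.0363 and 0.00716, limma).

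Of the substrates of MMPs, 15 of 16 were detected. None was called DE in the CS + LPS or NaHS groups against control or between these groups. With PPG against control 4 were (4.38% of all probes were): Eln and Col4a1 were lower, and Dcn and Spp1 were higher. Eln encodes elastin, the substrate of MMP12. Its log2 signal was 12.80, 13.74 and 13.13 in control, 12.79, 14.22 and 13.94 in CS + LPS, 14.07, 13.98 and 14.30 with NaHS and 11.26, 11.99 and 11.69 with PPG. All PPG arrays lay below all others.

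With PPG, Eln was 2.98-fold below control (log2 difference -1.58, SE 0.36, adjusted p = 0.0420, limma) and 4.00-fold below CS + LPS (-2.001, adjusted p = 0.0383, limma). It was 5.54-fold below NaHS (-2.47, unadjusted p = 2.84e-05, adjusted p = 0.566, limma). These 3 calls held in every fit that left out 1 array and with the slide as a block (-1.62, -2.14 and -2.47). The block value against CS + LPS rests on control replicate 3. Leaving out 1 array gave an adjusted p of 0.0228 to 0.118 against control and of 0.00957 to 0.154 against CS + LPS (limma). NaHS against control gave 0.89 (unadjusted p = 0.0302, adjusted p = 0.257, limma).

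Col4a1, a chain of basement membrane collagen, was 15.11, 15.10 and 15.23 in control and 14.01, 13.88 and 13.87 with PPG, 2.34-fold lower (-1.23, adjusted p = 0.0193, limma). The CS + LPS and NaHS arrays lay between the 2 groups, from 14.39 to 14.93. Dcn, the proteoglycan decorin that coats collagen fibrils, was 11.85, 12.74 and 11.51 in control and 13.21, 13.39 and 13.99 with PPG (1.495, adjusted p = 0.0439, limma). Spp1, which encodes osteopontin, was 7.53, 5.64 and 6.57 in control and 10.49, 7.03 and 11.64 with PPG (3.14, SE 1.04, unadjusted p = 0.0121, adjusted p = 0.0890, limma). PPG replicate 2 lay within the control range, and the Spp1 call was lost without PPG replicate 3 (2.18).

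Of 16 relatives of the ADAM and ADAMTS families 10 were on the array and 9 were detected. Adamts9, a proteoglycan-cutting enzyme, was called DE and lower with NaHS (-1.23, adjusted p = 0.121, limma) and with PPG (-1.77, adjusted p = 0.0208, limma) than in control. Its log2 signal was 11.88, 11.48 and 12.21 in control, 11.30, 11.03 and 10.36 in CS + LPS, 10.67, 10.58 and 10.63 with NaHS and 9.64, 10.21 and 10.41 with PPG, and the CS + LPS difference of -0.96 fell short of 2-fold. Adamts1 was called DE and lower with PPG (-1.13, adjusted p = 0.0450, limma), at 13.05, 13.36 and 12.75 against 13.64, 14.29 and 14.62 in control. That call was lost without control replicate 3 (-0.91) or PPG replicate 3 (-0.98), and with the slide as a block (-0.91). In CS + LPS against control the slide block added calls for Adamts1 (-1.15), Adamts9 (-1.32) and Dcn (1.26), which rest on control replicate 3. Over all probes that block called 4824 of 21239 DE.

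**Figure D4:**
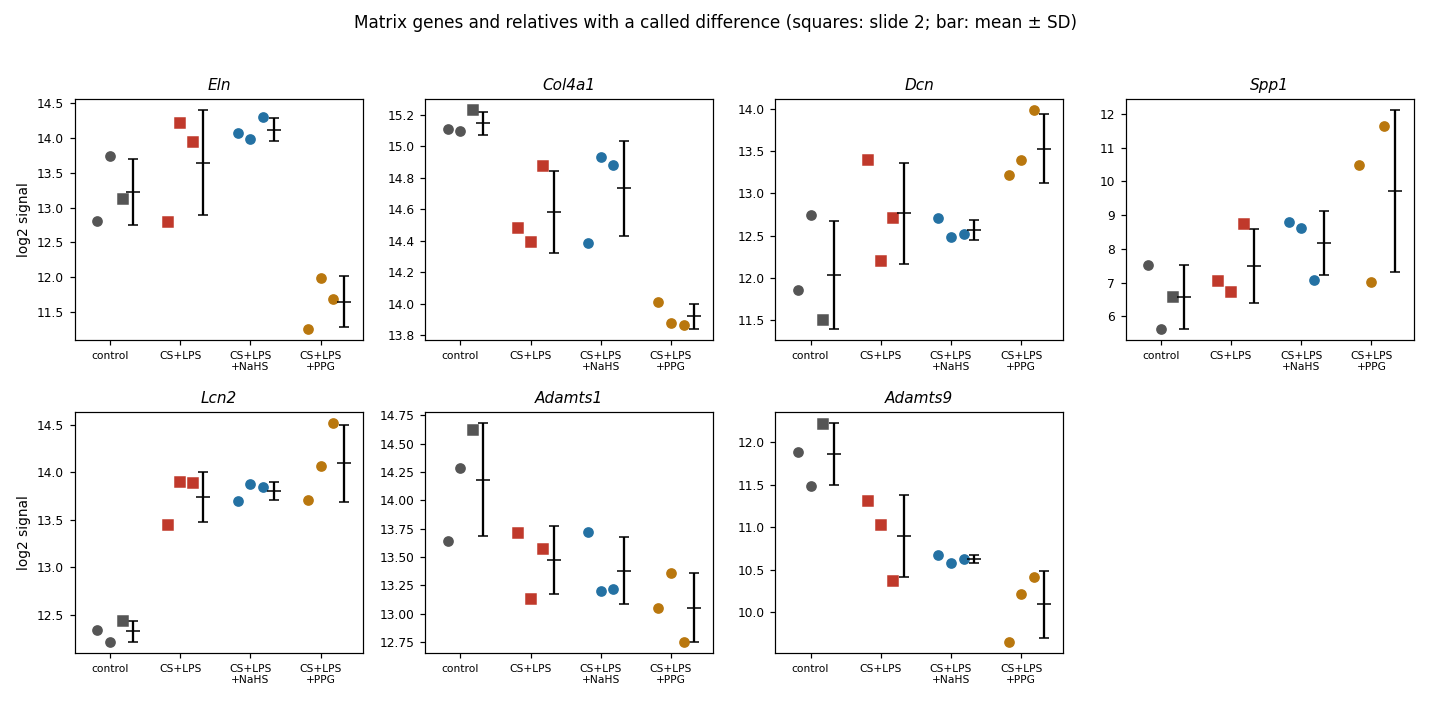
Log2 signal of 7 genes of the lists (Eln, Col4a1, Dcn, Spp1, Lcn2, Adamts1 and Adamts9) on each array, by group, with the mean ± SD (n = 3); squares are arrays of slide 2. The PPG arrays of Eln lie between 11.26 and 11.99, below the lowest other array at 12.79.

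Markers of other cells that lung samples can hold were set beside the PPG results, with the log2 of their summed signal. Fat markers (4 of 6 detected) were 12.998 to 13.51 with PPG, 11.78 to 13.29 in control and 12.00 to 12.83 in the other groups, and 2 of the 4 were called DE and higher with PPG than in control. Against CS + LPS 3 of the 4 were called DE and higher with PPG, and against NaHS 2 of the 4. Of all probes 4.38%, 2.06% and 0.518% were called DE in these comparisons. Heart muscle markers (4 of 6 detected) were 15.24 to 16.03 with PPG, 12.61 to 16.40 in control and 13.32 to 15.69 in the others, with none called DE. Their median log2 difference with PPG was 4.04 from control, 2.02 from CS + LPS and 2.73 from NaHS. Fibroblast markers (8 of 8 detected, Dcn among them) were 16.68 to 17.20 with PPG and 16.91 to 17.40 in the other groups, and Dcn and Lum of the 8 were called DE and higher with PPG than in control. Col1a1, Col1a2, Col3a1, Pdgfra and Pdgfrb had lower means with PPG than in control, without a call. The median difference of the 8 was -0.13. Smooth muscle markers (6 of 6 detected) were 14.91 to 15.14 with PPG and 14.80 to 15.78 in the others, and 1 of the 6 (Lmod1) was called DE and lower with PPG than in control. The means of all 6 were lower with PPG than in control, with a median difference of -0.44. Their part in the Eln, Col4a1, Dcn and Spp1 values was not tested.

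Other marker lists were summed in the same way. Airway secretory markers (6 of 8 detected) were 18.19 to 19.29 in control and 17.93 to 18.54 in the exposed groups, and 2 of the 6 (Scgb3a1 and Bpifa1) were called DE and higher with PPG than in control. Without a call, Scgb1a1 (-0.51), Scgb3a2 (-0.51) and Cyp2f4 (-0.72) were lower with PPG than in control, and Agr2 (0.88) was higher. Ciliated markers (4 of 6 detected) were 12.64 to 14.61 in control and 12.57 to 13.15 in the exposed groups. Mesothelial markers (3 of 5 detected) were 14.15 to 14.83 in control and 13.44 to 14.02 in the exposed groups, without overlap, and 1 of 3 was called DE and lower in the NaHS group. Mast cell markers (6 of 6 detected) were 11.73 to 13.70 in CS + LPS and 11.40 to 12.22 in the others, and 3 of the 6 were called DE and higher and 1 lower in CS + LPS than in control. Cartilage markers (2 of 5 detected) were 7.08 to 7.46, and pancreas markers (3 of 6 detected) were 11.36 to 11.96 with NaHS and 10.52 to 11.62 in the others.

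The genes whose pattern over the 12 arrays lay nearest to those of the called genes were found among 10228 genes, by the root mean square (RMS) difference of log2 values centred on each gene's mean. Nearest to Mmp12 were Cthrc1, a secreted protein of repairing tissue (RMS 0.29), and Aqp9, a water and glycerol channel of leukocytes (0.30). Nearest to Mmp9 were S100a8, a calcium-binding protein of neutrophils (0.33), and Gzmm, a protease of cytotoxic lymphocytes (0.37). Nearest to Mmp28 were Slc7a7, an amino acid transporter (0.53), and Pltp, a phospholipid transfer protein (0.58). Nearest to Timp3 were Nrg1, the growth factor neuregulin 1 (0.31), and Col23a1, a membrane collagen (0.36).

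The calls differed in how far they depended on single arrays and on the processing. Of the 10 calls made for the 8 genes, the Mmp12 calls of CS + LPS and PPG against control and the Timp3 call of NaHS against CS + LPS were made in all 12 fits that left out 1 array. The other 7 were lost in 1 or more of them.

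**Figure D5:**
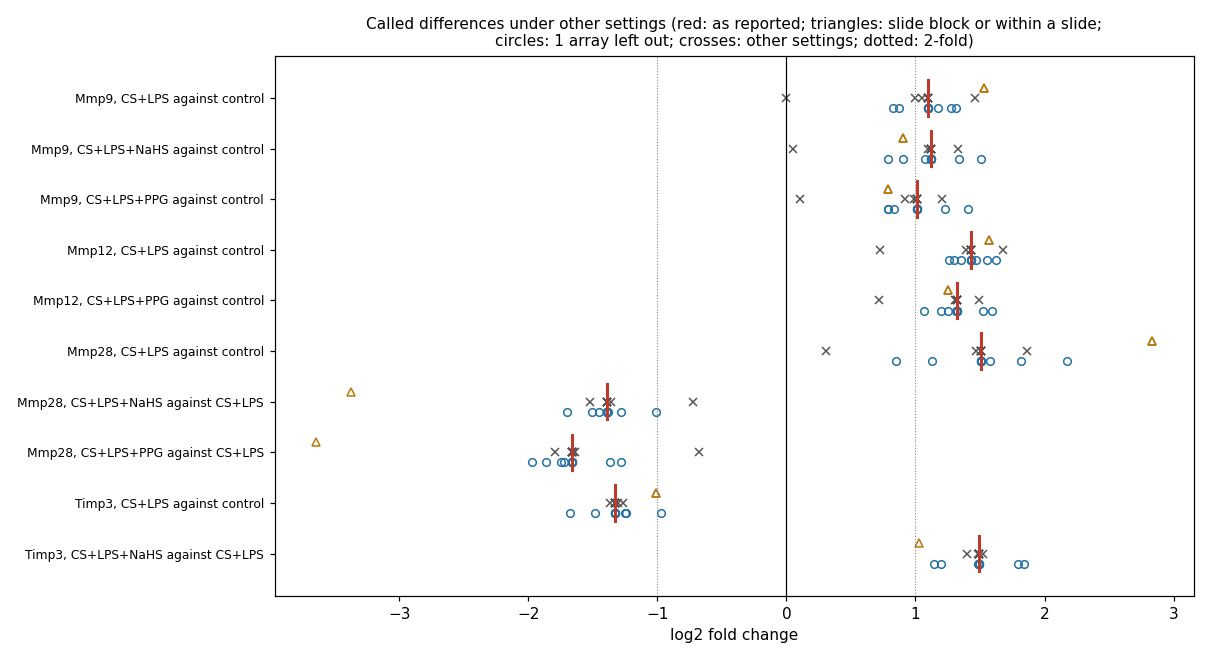
Log2 difference of each called gene and comparison as reported (red), with the slide as a block or within a slide (triangles), without 1 array (circles) and under other settings (crosses); dotted lines mark a 2-fold change. The Mmp12 difference of CS + LPS from control lies between 1.26 and 1.63 without any 1 array and at 0.73 with normexp background correction.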

How the data were processed

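Rat lung RNA was measured on 12 single-colour arrays (4 groups of 3, assigned from the sample labels). For each array the authors deposited the output of Feature Extraction 10.7 (10.7.3.1 per the file headers), whose processed signal is a linear intensity after background subtraction, rounded to 3 significant digits in 3 of the files. The arrays carry no sequencing depth, and the number of arrays limits the precision; 66.0% to 75.5% of the probes were well above background on an array. The authors also deposited 5 lists of DE probes, which hold their own fold ratio without sign, p-value and signals on the log2 scale. These were not used here, including 120 columns of values per array. The build behind their positions is not given in the sources used here.

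Processed signals were scaled in log2 to the 75th percentile of their array, with the mean of these percentiles restored. Outlier spots were left out (446 to 704 per array), no spot was saturated, and spots of a probe were averaged. The 21239 probes of 30367 detected in 1 or more groups (well above background on its 3 arrays) were fitted with limma 3.58.1 in R 4.3.3 (data.table, version 1.17.8) on all 12 arrays, and 6 comparisons were read from the fit (two-sided). DE followed the rule of the study's methods (2-fold, unadjusted p). The fit was tested on simulated data. Probes were named by RefSeq accession (17514 matched, 12853 did not) from the annotation of GRCr8, whose coordinates were used for promoters alone. The study describes the arrays as those of individual subjects, which the labels do not say.

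The genes and lists were chosen with earlier results of these data known. Named were the 10 genes by their most intense detected probe, every gene of the 4 further lists called DE in at least 1 comparison, and for each called gene the 2 genes of nearest pattern among those detected on every array. Alternatives were quantile normalization, the 75th percentile over probes detected on all arrays, normexp with an offset of 50 (on the median signal, since the mean signal that was planned is not a column of these files), outliers kept, other filters, the methods' t-test, only the 2 groups compared, slide or replicate number as a block, within-slide fits, and leaving out each array.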

Additional observations from a re-analysis of the deposited data

How the results depend on the processing

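Of the DE calls of the 8 genes under the alternatives, 188 values kept direction and call, 42 kept direction and lost the call, and 1 reversed: Mmp9 in CS + LPS against control was -0.00066 with normexp, whose offset of 50 lies near the signal of Mmp9 by construction. Number of the 8 genes called DE, as reported and under the alternatives that moved it: CS + LPS against control gave 4, 3 with outliers kept, with only the 2 groups compared and with the methods' t-test, 5 with the slide block or slide 2 alone (Timp3 lost, Mmp2 and Timp1 gained), 1 with normexp and 2 with only probes well above background on all 12 arrays, a filter that drops Mmp9 and Mmp28 by construction. NaHS against control gave 1, and 2 with quantile normalization and 0 with normexp, the filter on all arrays, the methods' t-test, the slide block and slide 1 alone. PPG against control gave 2, 0 with normexp, and 1 with the percentile over probes detected on all arrays, outliers kept, the filter on all arrays, the methods' t-test, the slide block and slide 1 alone. NaHS against CS + LPS gave 2, and 1 with quantile normalization, normexp, the filter on all arrays, the slide block and the replicate block. PPG against CS + LPS gave 1, 0 with normexp and the filter on all arrays, and 2 (Mmp2 and Mmp28) with the slide block. Leaving out 1 array gave 2 to 4, 0 to 2, 1 to 2, 1 to 2 and 0 to 1 in the same order, and 0 to 1 for PPG against NaHS, where Timp3 was called without NaHS replicate 1 (-1.16). The cause was not tested for these changes except where named. The median of all probes for CS + LPS against control was -0.14 with normexp and -0.21 with no filter, against -0.04 as reported. With the slide block 4824 of the 21239 probes were called DE in that comparison, against 974 as reported. For NaHS against CS + LPS they were 4220 against 363, and for PPG against CS + LPS 4118 against 437.

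The replicate numbers did not pair the arrays: deviations of same-numbered arrays correlated at -0.31 to 0.14 (2 of 18 pairs over 0.1), and those of other numbers at -0.19 to 0.22. With the replicate block, the call of Mmp28 for NaHS against CS + LPS was lost (unadjusted p = 0.0543, limma), which left 1 gene called, and no other call of the 8 genes changed.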
